A study of Mus musculus with 4 samples.

Results

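Caudal HoxA is the stretch of mouse chromosome 6 that runs from Hoxa10 through Hoxa11 and Hoxa13 to Evx1. Its members were the HindIII fragments that start at or beyond a fixed position at the Hoxa10 end and have a midpoint below a fixed position at the Evx1 end (mm9). This took 9 of 461 scored fragments, of which the first ends at 52183981 and the last runs from 52253466 to 52265585, a span of 86.5 kb in all. All 9 carried a score above 0 in every library. The fragments were between 1.51 and 16.6 kb long, and 1 unlisted gap of 7429 bp lies between the fifth and the sixth. Contacts were measured by 5C, in which ligated junctions between many restriction fragments of 1 region are read with a pool of primers, and the deposited value is an insulation score per fragment. The 4 groups, with 1 library each, were embryonic stem cells (ESC) and motor neurons (MN) of a wild-type (WT) line and of a line with the genotype Δ5|6:7|9 (the deletion line). The labels name 2 biological replicates for each group, but only 1 score per fragment is given, so their spread cannot be seen. The study is known to have removed CTCF sites at the Hoxa5|6 and Hoxa7|9 intervals, which lie outside the stretch, on its low-coordinate side. Per the labels' protocols, ESC of both lines were kept with Lif, 1 µM of the MEK inhibitor PD0325901 and 3 µM of the GSK3 inhibitor CHIR99021. Both lines were differentiated as embryoid bodies given 1 µM all-trans-retinoic acid and 0.5 µM smoothened agonist on day 2. How many clones the deletion line represents is not given in the sources used here, and the assay holds no marker expression by which the labelled cell types could be checked.

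Hoxa10, Hoxa11 and Hoxa13 encode homeodomain transcription factors of the posterior end of the body axis, needed in the reproductive tract, limb and digits. Evx1, next to the cluster, encodes a homeodomain factor that specifies a class of spinal interneurons. In motor neurons patterned with retinoic acid, the anterior HoxA genes are known to be active and the caudal ones to stay under Polycomb repression, with CTCF sites in the cluster at the border. By the usual convention few contacts cross a fragment with a low insulation score. The files do not state the direction of the score, so values are given below as higher or lower scores only.

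In the RefSeq table of GRCm38.p6, the gene order with rising coordinate is Hoxa9, Mir196b, Hoxa10, Hoxa11, Hoxa13, Hottip and Evx1, with several other noncoding genes among them. No mm9 gene annotation was used here, so no fragment was assigned to a single gene. Fragments are placed by their order from the Hoxa10 end to the Evx1 end. The bases just before the start sites of 3 of the genes are shown to place these genes and to show the CTCF core where it occurs. They are the 250 bases upstream of the start, from RefSeq (GRCm38.p6), and their coordinates must not be set against the mm9 fragments. Hoxa11 lies at chr6:52245811-52246060 and Hoxa13 at chr6:52260881-52261130, both on the minus strand, and Evx1 lies at chr6:52313248-52313497 on the plus strand. Capitals mark a match to the CTCF core.
Hoxa11: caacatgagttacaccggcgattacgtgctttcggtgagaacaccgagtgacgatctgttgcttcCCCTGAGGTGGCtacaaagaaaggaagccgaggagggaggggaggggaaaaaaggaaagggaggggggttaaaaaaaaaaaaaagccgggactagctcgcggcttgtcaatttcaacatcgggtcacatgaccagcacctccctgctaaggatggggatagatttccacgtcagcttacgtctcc
Hoxa13: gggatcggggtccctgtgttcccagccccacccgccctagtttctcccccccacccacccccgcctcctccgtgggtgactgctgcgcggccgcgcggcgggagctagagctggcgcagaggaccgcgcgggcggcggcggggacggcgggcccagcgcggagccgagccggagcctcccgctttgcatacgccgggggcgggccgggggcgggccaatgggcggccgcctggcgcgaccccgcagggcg
Evx1: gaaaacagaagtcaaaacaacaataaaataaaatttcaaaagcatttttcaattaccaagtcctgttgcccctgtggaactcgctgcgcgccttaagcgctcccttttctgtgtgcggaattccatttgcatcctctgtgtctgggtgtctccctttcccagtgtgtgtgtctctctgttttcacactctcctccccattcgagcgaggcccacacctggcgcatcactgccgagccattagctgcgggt
The core used here (CC, any 3 bases, AG, any 2 bases, GGC), searched on both strands, was found at bases 66 to 77 of the Hoxa11 sequence and in none of the other 4 upstream windows of the 4 genes (Hoxa10 has 2 listed starts). It was present in 7.17% of all 32851 windows of this length in the table. The HindIII letters AAGCTT, which read the same on both strands and are in 6.22% of all windows, were in none of the 5. GC content was 80% before Hoxa13, 52% before Hoxa11 and 49.6% before Evx1. A match is a description of letters and is not evidence of binding.

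Scores are relative to each library's own region, since the mean over 461 fragments was 1.00 in each of the 4 libraries. Without contact counts the depth of the libraries is not known, and scores are given with no counting interval. A score draws on contacts of neighbouring fragments, so adjacent values are not independent. Log2 ratios of adjacent fragments correlated at a Pearson r between 0.90 and 0.93 in the 4 comparisons, over 460 pairs, which share libraries and window. Of the 9 scores, 3 in each ESC library, 7 for WT MN and 0 for deletion-line MN carried an extra last digit of 5, as a mean of a pair of values often does. Over all fragments 47.1% (WT) and 48.4% (deletion line) did in ESC, and 53.6% and 0% in MN. Whether deletion-line MN rests on the same number of replicates as the others is thus uncertain, and this applies to every value from that library below.

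From the fourth fragment on, the stretch held low scores in all 4 libraries, and its middle 3 fragments had the lowest mean in each. At the Hoxa10 end, the first fragment, which ends at 52183981, scored 0.716 in ESC and 0.462 in MN of WT, against 1.08 and 0.711 in these states of the deletion line. The second, from 52183982 to 52188538, scored 0.672 in ESC and 0.517 in MN of WT, against 0.998 and 0.622 in these states of the deletion line. The third, short and running from 52188539 to 52190053, scored 0.528 in ESC and 0.474 in MN of WT, against 0.756 and 0.474 in these states of the deletion line. At these first 3 fragments, deletion-line ESC was the highest library and the WT and deletion-line MN values converged with rising coordinate.

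In the middle of the stretch deletion-line ESC stayed highest and deletion-line MN became lowest. The fourth, from 52190054 to 52203348, scored 0.430 in ESC and 0.449 in MN of WT, against 0.619 and 0.384 in these states of the deletion line. Its neighbour, from 52203349 to 52209630, scored 0.458 in ESC and 0.437 in MN of WT, against 0.581 and 0.346 in these states of the deletion line. Beyond the gap, the sixth, from 52217060 to 52233685, scored 0.447 in ESC and 0.439 in MN of WT, against 0.537 and 0.348 in these states of the deletion line. The mean of these 3 fragments was 0.445 in WT ESC and 0.441 in WT MN, so both WT states lay close, with deletion-line ESC above them at 0.579 and deletion-line MN below them at 0.359.

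Toward Evx1 the 4 libraries drew together. The seventh, from 52233686 to 52242792, scored 0.545 in ESC and 0.539 in MN of WT, against 0.601 and 0.441 in these states of the deletion line. The next, from 52242793 to 52253465, scored 0.541 in ESC and 0.547 in MN of WT, against 0.588 and 0.470 in these states of the deletion line. The last, from 52253466 to 52265585, scored 0.591 in ESC and 0.526 in MN of WT, against 0.605 and 0.484 in these states of the deletion line. Deletion-line ESC was highest and deletion-line MN lowest at each of the last 6 fragments.

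**Figure D1:**
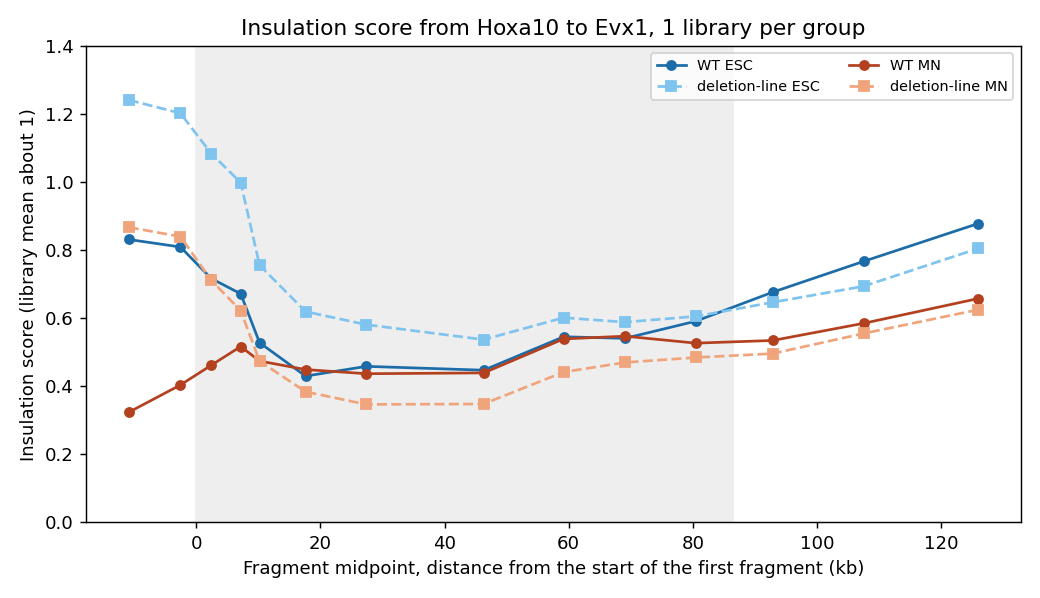
Insulation score (vertical axis, library mean about 1) against distance of the fragment midpoint from the start of the first fragment (horizontal axis, kb), for the 9 fragments from Hoxa10 to Evx1 (grey background) and neighbours on both sides; each point is 1 fragment in 1 library, with no error bars because each group has 1 library. WT MN stays between 0.437 and 0.547 across the stretch, while deletion-line ESC runs from 1.08 down to 0.537.

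Among themselves the 9 fragments varied least in WT MN, where the highest score was 1.25-fold the lowest. The same ratio came to 1.67 for WT ESC and, for the deletion line, to 2.02 in ESC and 2.05 in MN. The mean over the 9 for WT was 0.547 (SD 0.0989 over fragments) in ESC and 0.488 (SD 0.0445) in MN. For the deletion line it was 0.708 (SD 0.199) in ESC and 0.475 (SD 0.122) in MN. These SDs describe fragments and are no replicate error. From the second to the fourth fragment, over both steps, the log2 score changed by -0.35 and -0.30 in WT ESC. The same steps were -0.40 and -0.29 for deletion-line ESC, -0.39 and -0.30 for deletion-line MN and -0.12 and -0.079 for WT MN. In WT MN the highest of the 9 was the eighth fragment, whereas in the other 3 libraries it was the first. At the far side of the middle, the step from the sixth to the seventh fragment was upward in every library, on the log2 scale by 0.29 (ESC) and 0.30 (MN) for WT and by 0.16 (ESC) and 0.34 (MN) for the deletion line.

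The lowest fragment of the stretch differed between libraries. In WT ESC it was the fourth, from 52190054, with the third lowest score of all 461 fragments. In deletion-line ESC it was the sixth, from 52217060, ranked 9 from the bottom of that library, with a midpoint 28.7 kb nearer to Evx1. In both MN libraries it was the fifth, from 52203349, ranked 6 from the bottom for WT and 2 for the deletion line. A local minimum with a prominence of at least 0.25 on the log2 scale was called at the lowest fragment in WT ESC (prominence 1.78) and in both deletion-line libraries (1.68 for ESC, 2.22 for MN). In WT MN the prominence was 0.24, just under the limit, because the profile there went on down below Hoxa10 to 0.323 at 52163062 to 52173421. Whether the middle 3 fragments truly differ within a library cannot be told, since their scores span only 1.07-fold (ESC) and 1.03-fold (MN) for WT and 1.15-fold (ESC) and 1.11-fold (MN) for the deletion line, and no replicate spread is at hand.

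Set against the whole region, the stretch held some of the lowest scores, except in deletion-line ESC, where its lowest fragment ranked 9 from the bottom. In WT, scores under 0.5 were found at 3 of the 9 fragments for ESC (2.39% of all scored fragments) and 5 for MN (3.04%). In the deletion line they were found at 0 for ESC (0.868% of all) and 7 for MN (4.56%). In length, the fragments under this limit covered 36.2 kb (ESC) and 42.6 kb (MN) for WT and 69.6 kb for deletion-line MN. The limit was chosen with the scores known and only describes them. In deletion-line ESC the first 2 fragments lay near the middle of that library's scores, with 65.5% and 51.6% of all fragments below them, while the last 6 had at most 5.21% below them.

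**Figure D2:**
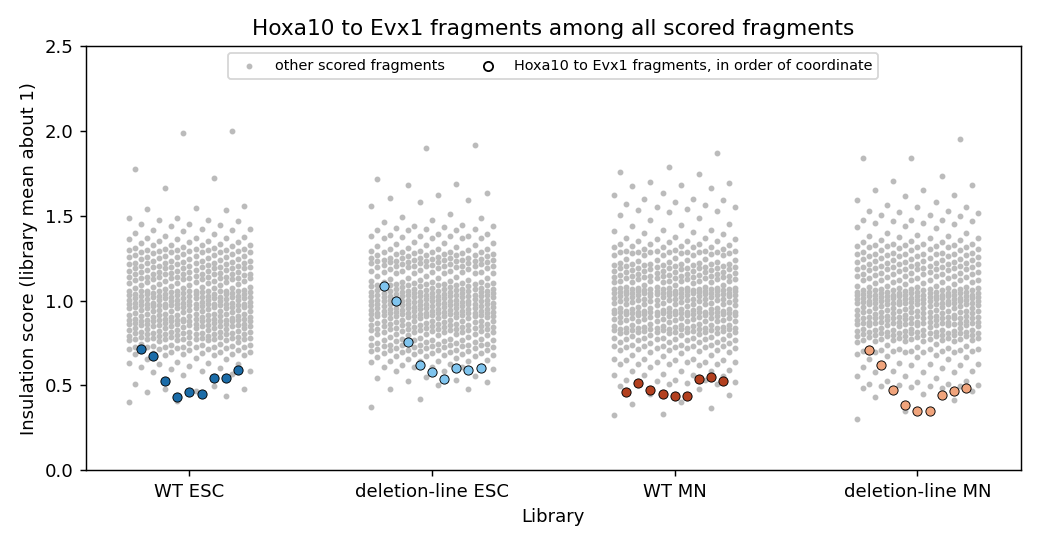
Insulation score (vertical axis, library mean about 1) of all 461 scored fragments in each of the 4 libraries (horizontal axis); grey points are other fragments and outlined points are the 9 fragments from Hoxa10 to Evx1 in order of coordinate. The last 6 of the 9 lie near the bottom of each library, and the first 2 lie higher in 3 libraries, up to 0.716 for WT ESC and, with the deletion, 1.08 for ESC and 0.711 for MN.

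The effect of the deletion on caudal HoxA was asked first in ESC. With the deletion, all 9 fragments scored above WT, most at the Hoxa10 end and least at the Evx1 end. Over the whole region, 201 of 461 scored above WT. The log2 ratios in order of coordinate were 0.60, 0.57, 0.52, 0.53, 0.34, 0.26, 0.14, 0.12 and 0.034, which is 1.51-fold at the first fragment and 1.02-fold at the last. The first 3 fragments averaged 0.56, the middle 3 averaged 0.38 and the last 3 averaged 0.099. The last of these means is near 0.088, the SD over the 393 fragments outside a window of 500 kb around the cluster. Of the 9, 6 were at least 0.25 higher, the limit used here (1.19-fold), and none was that much lower. Over the whole region 3.9% of scored fragments were at least that much higher and 0.217% that much lower. The mean over the stretch was 0.35 (median 0.34), beside a median of -0.015 over all 461 fragments. After quantile normalization the mean was 0.31 and 4 of the 9 were at least 0.25 higher. Without it, 4 were at least 0.35 higher. Shares over all fragments were not recomputed for these counts. The stretch begins at the fragment with the highest of all 461 log2 ratios in ESC, and without its first 3 fragments the mean was 0.24. Just outside, the fragment below it (52174043 to 52179067) had a log2 ratio of 0.57 and the fragment above it (52265586 to 52278230) one of -0.065. Each line has 1 library, so these differences have no replicate check.

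In MN the same comparison changed direction within the stretch. Scores were higher in the deletion line at the first 2 fragments and lower at the last 6, and the third was nearly equal. In order of coordinate the log2 ratios were 0.62, 0.27, -0.0011, -0.23, -0.33, -0.34, -0.29, -0.22 and -0.12. At the first fragment this is 1.54-fold higher, and at the sixth, the lowest log2 ratio of all 461 in this comparison, 1.26-fold lower. The 2 fragments at least 0.25 higher lay at the Hoxa10 end, and the 3 at least 0.25 lower were the fifth, sixth and seventh. The shares over the whole region were 2.17% higher and 0.868% lower, so 3 of the 4 fragments of the region that were this much lower in MN lay between Hoxa10 and Evx1. The fourth lay in the rest of the region (393 fragments outside a window of 500 kb around the cluster), where log2 ratios ran from -0.33 to 0.16. The mean over the 9, -0.070, hides the change of direction and depends on its first fragments: the median was -0.22 and the mean without the first 3 was -0.25. After quantile normalization 1 fragment of the 9 was at least 0.25 higher and 2 were that much lower. The shares over the whole region were not recomputed after it. Just outside, the log2 ratio was 1.06 below the stretch and -0.11 above it.

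**Figure D3:**
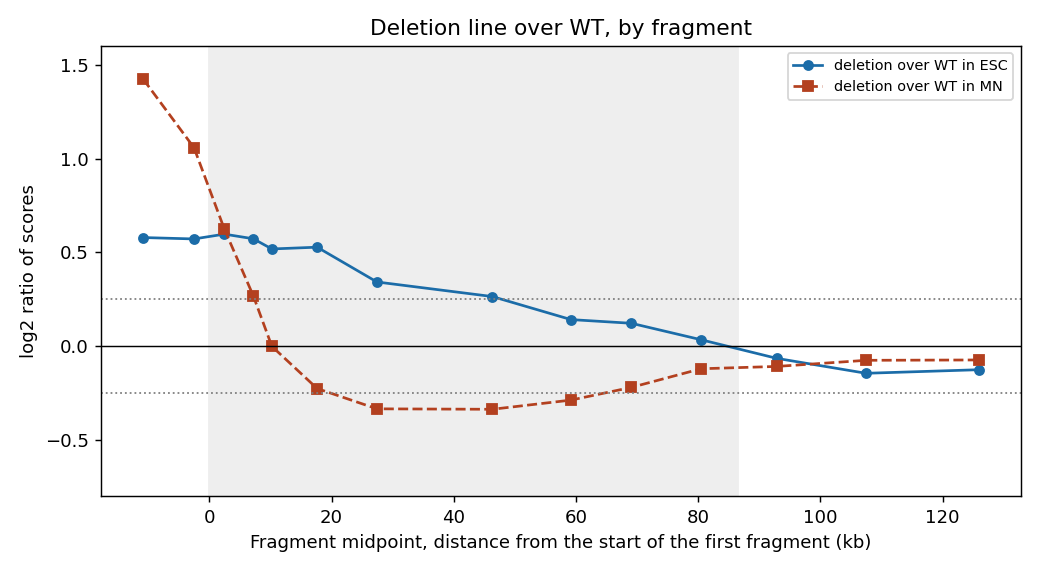
Log2 ratio of scores, deletion line over WT (vertical axis), by distance of the fragment midpoint from the start of the first fragment (horizontal axis, kb), in ESC and in MN; each point is 1 fragment, dotted lines mark 0.25 above and below 0, and the grey background marks the 9 fragments from Hoxa10 to Evx1. The values are close at the first fragment (0.60 in ESC, 0.62 in MN); over the other 8 the ESC values lie above the MN values and above 0, and the MN values reach -0.34.

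The deletion's log2 ratios of the 2 states, which share no library, were then set side by side. The ratio in MN minus that in ESC was 0.027 at the first fragment and below 0 at the other 8, where it was -0.30, -0.52, -0.75, -0.68, -0.60, -0.43, -0.34 and -0.15 in order. The mean over the 9 was -0.42, beside a median of 0.0015 over all 461 fragments and a range from -0.36 to 0.32 over the rest. The rest leaves out the surroundings of the stretch, where the difference was above 0 on the low-coordinate side. It was 0.49 at 52174043 to 52179067 and 0.84 at 52163062 to 52173421. Over all 461 fragments the highest was 0.96, so the largest difference in size lay outside the stretch. The fourth fragment had the lowest of all 461 differences. Scores were higher in ESC and lower in MN with the deletion at 7 of the 9 fragments, beside 25.6% of all scored fragments. The 7 include the third fragment, which was nearly equal in MN (log2 ratio -0.0011). With the changes in ESC and in MN each at least 0.25 in size, 2 of the 9 had this pattern, the fifth and the sixth. They were the only ones among all scored fragments (0.434%). At a limit of 0.35 no fragment of the region had the pattern, as no MN log2 ratio was that low. The opposite pattern, lower in ESC and higher in MN, was seen at 22.1% of all scored fragments. It was seen at 0 of the 9, which follows from all 9 being higher in ESC and adds nothing to it. A test of the difference has no residual degree of freedom with 1 library per group, so it was not tested.

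The next question was how differentiation altered caudal HoxA in WT. The libraries are the same as those used as WT in the deletion comparisons, so a deviation of either would enter both. WT scores were lower in MN than in ESC at the Hoxa10 end and changed little from the fourth fragment to the eighth. The log2 ratios in order were -0.63, -0.38, -0.16, 0.063, -0.070, -0.026, -0.017, 0.017 and -0.17. The first fragment was 1.55-fold lower in MN, and the fourth was 1.04-fold higher. Only the first 2 were at least 0.25 lower and none was that much higher, beside 11.3% lower and 12.8% higher over the whole region. The mean over the 9 was -0.15 and rested on the Hoxa10 end, as it was -0.033 without the first 3 fragments, with a median of -0.070. After quantile normalization of the 4 libraries it was -0.011. The fragment below the stretch was 2.01-fold lower in MN, and that above it 1.27-fold lower.

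In the deletion line all 9 fragments scored lower in MN than in ESC, and each by at least 0.25. The log2 ratios in order were -0.61, -0.68, -0.67, -0.69, -0.75, -0.63, -0.45, -0.32 and -0.32. The fifth fragment was 1.68-fold lower in MN and the last 1.25-fold lower. Over the whole region 14.8% of scored fragments were lower by this much and 12.4% higher. The mean was -0.57, beside a median of -0.018 over all scored fragments. Quantile normalization reduced the mean to -0.37 and the count past the limit to 5 of 9. The shares over the whole region were not recomputed after it. Outside, the log2 ratio was -0.52 below the stretch and -0.38 above it. At the first fragment WT and deletion line had nearly the same ratio of MN over ESC (-0.63 and -0.61), whereas at the middle 3 fragments the mean ratio was -0.011 for WT and -0.69 for the deletion line. The difference between lines is the same quantity as the difference between states given above, and was likewise not tested.

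**Figure D4:**
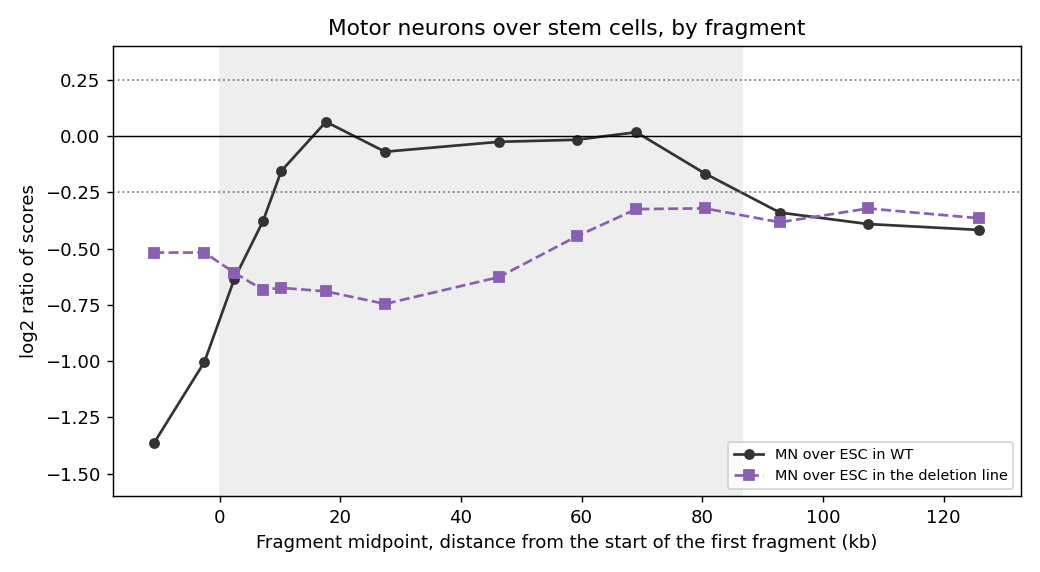
Log2 ratio of scores, MN over ESC (vertical axis), by distance of the fragment midpoint from the start of the first fragment (horizontal axis, kb), for each line; each point is 1 fragment, dotted lines mark 0.25 above and below 0, and the grey background marks the 9 fragments from Hoxa10 to Evx1. WT values lie near 0 from the fourth to the eighth fragment, and deletion-line values lie between -0.75 and -0.32 at all 9.

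An additive fit of line and state to the log2 scores of the 4 libraries (limma, over all 461 fragments, with Benjamini-Hochberg adjustment) leaves 1 residual degree of freedom per fragment. What remains as residual is the interaction of state and line, so the fit asks for a change shared by both states or both lines, and its p measures no spread between replicates. For the deletion it called 1 of the 9 fragments, the first, with a coefficient of 0.61 (SE 0.037, limma adjusted p = 0.018). That was the only call among all fragments (0.217% higher, 0% lower), and it sits where the ESC and MN log2 ratios were nearly equal (0.60 and 0.62). On linear scores or after quantile normalization the fragment was no longer called. For MN over ESC it called 3 of the 9, all lower in MN: the first (coefficient -0.62, SE 0.037, limma adjusted p = 0.005), the second (-0.53, SE 0.081, 0.01) and the last (-0.24, SE 0.052, 0.023). Over the whole region 23% of fragments were called lower and 21.7% higher, so 3 of 9 is near the background. Among the 9, the SE was largest at the fourth fragment, 0.18, where the state-by-line difference was the largest of the 9 in size. This follows from the fit, as the SE is computed from that difference and from a variance pooled over all fragments. The pooled part has 3.44 degrees of freedom, and the fragment's own difference has 1. The SE is smallest where both states have nearly equal ratios. At the first fragment, where the difference was 0.027, the SE of 0.037 rests mostly on the pooled variance.

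By the smallest Euclidean distance of log2 scores over the 4 libraries to the mean of the 9, the most similar of the 393 fragments in the rest were at 53727321 to 53745028 (distance 0.29), 51801037 to 51810569 (0.32) and 51810570 to 51811964 (0.34), beside a median distance of 1.82. The first of these scored 0.562 in ESC and 0.552 in MN of WT, against 0.595 and 0.489 in these states of the deletion line. With the deletion its log2 ratio came to 0.081 (ESC) and -0.18 (MN), smaller in size than at the middle of the Hoxa10 to Evx1 stretch in both states. The other pair scored lower with the deletion in both states, with log2 ratios of -0.035 and -0.069 in ESC and -0.076 and -0.087 in MN.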

How the data were processed

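Each deposited table holds an insulation score for every listed HindIII fragment of 1 library, which the authors combined with their own script, per the file headers. The submitters' processing notes name Bowtie 1 and mm9. How primers were filtered and contacts normalized, the score's window and how the 2 biological replicates named in the labels were combined are not stated in the labels or headers. Of 479 listed fragments, 18 at the ends of the region were at 0 in every library and were left out. The tables give no chromosome, and chromosome 6 is the known place of HoxA. Log2 ratios of scores were computed with Python 3.11.15 and numpy 2.4.6, with no pseudocount, and local minima with scipy 1.17.1. The additive fit used limma 3.58.1 (R 4.3.3) with 3.44 prior degrees of freedom and an adjusted p limit of 0.05. It was also run on simulated scores with independent fragments and no interaction. The changes put into them were larger than any deletion coefficient of the stretch. That run checks the code only and cannot show how the fit performs on these data. Every member fragment was named with its values, as were the fragments next to them and the 3 most similar in the rest, the 393 fragments outside a window of 500 kb around the cluster. Members, limits and alternatives were chosen with earlier results of these data known. Alternatives were the median, weighting by length, 2 scalings, other limits and leaving out end fragments. With 1 library per group no replicate could be left out.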

Additional observations from a re-analysis of the deposited data

Results flagged for a closer look

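At 5 fragments between Hoxa10 and Evx1 the deletion's change had opposite signs in the 2 states, with the score at least 0.1 higher in ESC and at least 0.1 lower in MN on the log2 scale. The difference of log2 ratios, MN minus ESC, was -0.75 at 52190054 to 52203348, -0.68 at 52203349 to 52209630, -0.60 at 52217060 to 52233685, -0.43 at 52233686 to 52242792 and -0.34 at 52242793 to 52253465. The difference was not tested, as each state has 1 library per line. Over all 461 scored fragments 8 met this limit, and 3 of them lay in the rest of the region. The 5 fragments are adjacent and their scores share contacts, so they are not separate observations. Each value includes deletion-line MN, the library whose decimals differ from the others, and the part of that difference in the result was not tested.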

How the results depend on the processing

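Of 59 recomputed values, 14 went past a limit and 45 stayed inside it. The limit was the SD over the rest for log2 ratios and a factor of 1.5 for counts. No recomputed mean, median or difference of log2 ratios changed sign, and counts cannot do so. For MN over ESC in WT the limit (0.19) is wider than the mean itself (-0.15). Its value after quantile normalization, -0.011, therefore counts among the 45, although little of the mean was left. Leaving out the first 3 fragments was chosen after seeing the data. The mean for the deletion in ESC (0.35) became 0.24 without the first 3 fragments. The MN mean for the deletion (-0.070) was -0.22 as a median, and weighting by length gave -0.16, leaving out the first fragment -0.16 and leaving out the first 3 -0.25, in each case giving less weight to the Hoxa10 end. The mean for MN over ESC in the deletion line (-0.57) was -0.37 after quantile normalization. Counts of fragments at least 0.25 from 0 were 1 at a limit of 0.35 and 3 after quantile normalization for the deletion in MN (5). At the limit of 0.35 the count was 1 higher and 0 lower. The lowest MN log2 ratio of all 461 was -0.34, so no fragment of the region was lower by 0.35. For MN over ESC in WT the count (2) was 4 at a limit of 0.15 and 1 after quantile normalization. In the deletion line the count (9) was 5 after quantile normalization. Apart from the MN decrease at 0.35, no share past a limit was recomputed over all fragments. The additive fit (limma) for the deletion (1 fragment of the stretch, 1 of 461) called 0 of the stretch on linear scores and 0 after quantile normalization. Over all fragments it called 6 and 0. For MN over ESC (3) it called 1 after quantile normalization. The cause was not tested where none is named. Scaling to the median of the rest shifted log2 ratios by at most 0.023. No paired analysis was possible, because each group has 1 library and the biological replicates named in the labels have no separate scores. With no contact counts and no replicate libraries, the precision of a single score is unknown.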

Other observations

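Beyond the Evx1 end, the deletion's log2 ratio in ESC was below 0, while it was above 0 at all 9 fragments of the stretch. A value below 0 was common, at 260 of the 461 scored fragments in ESC and 276 in MN. The SD over the rest was 0.088 in ESC, larger than the size of the first ESC value below. At 52265586 to 52278230, 52284579 to 52288485 and 52290826 to 52319093 the log2 ratio of deletion line over WT was -0.065, -0.14 and -0.13 in ESC and -0.11, -0.076 and -0.074 in MN. The last of these scored 0.878 in ESC and 0.657 in MN of WT, against 0.805 and 0.625 in these states of the deletion line. There MN was lower than ESC by similar amounts in both lines, as log2 ratios of -0.42 for WT and -0.37 for the deletion line show. These are values of 1 library per group, with no replicate check.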
